A study of Rhipicephalus microplus with 12 samples.

Results

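A set of 190 array probes gave less signal in the midgut, ovary and salivary gland of the cattle tick *Rhipicephalus microplus* than in a common reference pool, with a mean log2 ratio of -2 or lower in every tissue. They were 1.41% of the 13459 probes on the array. The dyes in the labels make each ratio likely tissue over pool, and a ratio of -2 then means that the tissue channel held 25% of the pool's signal; if the ratios ran the other way, it held 4 times that signal. The ratios chose the probes, so their low level is described here and not tested. All ticks were of the Mozambique strain and fed on Holstein-Friesian cattle. The 3 tissues came from adult females on day 20 of infestation, with 2 biological replicates per tissue and 2 arrays per replicate, 12 arrays in all. Midgut and salivary gland arrays shared slide 1 and ovary arrays lay on slide 2. The pool combined immature to adult ticks of days 4, 5, 7, 13 and 15 with dissected tissues of day 20. Its life stages were of mixed sex and its adult tissues female. The number of ticks behind a replicate is not given in the labels, nor whether separate animals were used, so a p-value reflects only how far these samples spread.

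On an array of 2 colours, 2 RNA samples compete for the same probe and the readout is their ratio. A pool is shared by all arrays so that tissues can be compared through it, and a transcript can stand far below the pool in every tissue examined where other contributors to the pool carry it. Ticks of the earlier days hold tissues that were not dissected here, such as muscle, cuticle, synganglion, Malpighian tubules, trachea and male organs. During the blood meal of this 1-host tick, larvae and nymphs moult on the animal, cuticle is laid down, and the female then swells and fills her ovary with yolk. Which of these contributors carries a given transcript cannot be read from these arrays. Cy5 marked the tissue on every array and Cy3 the pool, without a dye swap, and a probe that reads weakly in Cy5 on every array cannot be told apart from a transcript that is scarce in every tissue.

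Of the 190 probes, 157 carry an identifier here and 33 do not. The identifiers are contig numbers or sequence accessions, none of the 157 is paired with a gene name, and 0 matched the RefSeq gene table, so no function is given and no probe sequence is shown. The tissue labels could not be checked against marker genes for the same reason. Array medians over all probes ranged from -0.05 to 0.39. Midgut replicate 2 had -0.05 on its repeat array, and ovary had -0.03 on the first array of replicate 1 and on the repeat array of replicate 2, against 0.26 to 0.39 on the other midgut and ovary arrays. Without these 3 arrays the rule again chose 190 probes, 188 of them the same.

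In the deposited values the depleted probes were lowest in ovary; as percentiles of all probes, and with quantile or scale normalization, they were lowest in salivary gland. Their deposited median log2 ratio was -4.28 in ovary, -3.25 in midgut and -2.74 in salivary gland, that is 5.13%, 10.5% and 15.0% of the pool's signal as tissue over pool. With the direction turned, these would be 19.5, 9.53 and 6.67 times the pool's signal. The medians over all 13459 probes were 0.24, 0.25 and 0.10. In ovary the 190 tissue means ran from -7.46 to -2.51, so even the highest lay clear of the limit. In midgut they ran from -5.94 to -2.03 and in salivary gland from -4.85 to -2.002. The median of the 190 was -4.12 in replicate 1 and -4.52 in replicate 2 of ovary, -3.23 and -3.30 in midgut, and -2.78 and -2.73 in salivary gland. Replicates thus lay closer together in midgut and salivary gland than in ovary, where the median SD of a depleted probe was 0.26 against 0.15 for all probes. In midgut this SD was 0.12 against 0.16, and in salivary gland 0.15 against 0.18.

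**Figure D1:**
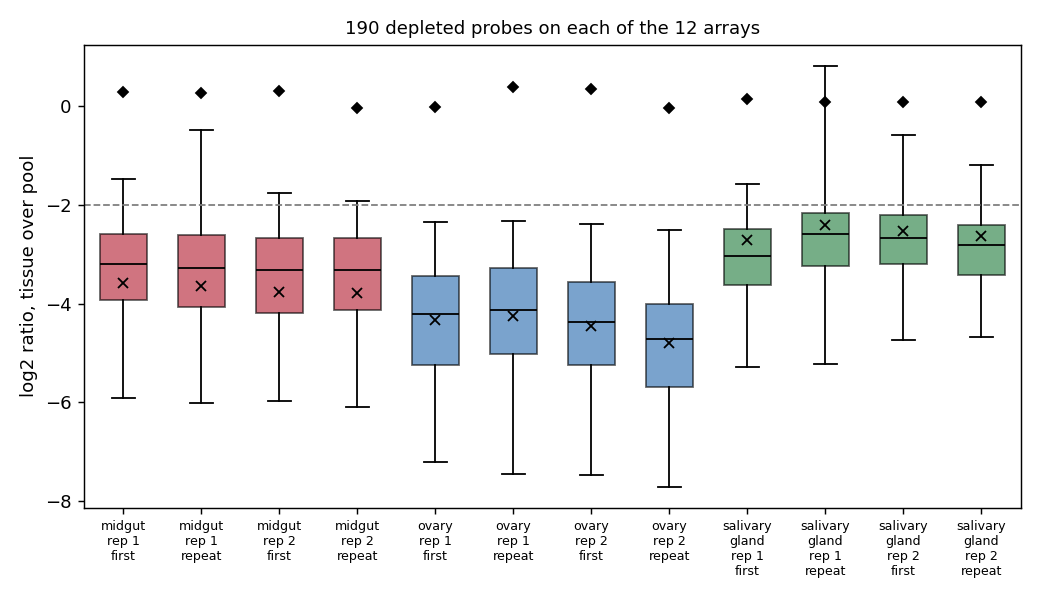
Log2 ratios of the 190 depleted probes on each array: boxes show quartiles and median, whiskers the lowest and highest value, black diamonds the median and black crosses the first percentile of all 13459 probes, and the dashed line the limit of -2. All 190 lie below the limit on every ovary array, and the box medians run from -4.73 on an ovary array to -2.59 on a salivary gland array.

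The single arrays are the values that the rule averaged, so the counts on them follow in part from the choice. All 190 probes stood at or below -2 on each of the 4 ovary arrays, 181 to 188 did so on the midgut arrays and 160 to 186 on the salivary gland arrays. On every one of the 12 arrays 133 did, and in all 6 replicate means 162 did. Only 4 single values lay above -1. CK179496 read 0.82 on the repeat array of salivary gland replicate 1 and -3.27 to -2.96 on the other 3 salivary gland arrays. CV437130 read -0.58 and CV454316 read -0.67 on the first array of salivary gland replicate 2, where their other values were -3.74 to -2.87 and -3.48 to -2.23. Contig2248 read -0.48 on the repeat array of midgut replicate 1 and -3.01 to -2.44 elsewhere in midgut. The authors' tissue means left out the stray spots of CV437130 and Contig2248 and kept those of CK179496 and CV454316. These 4 probes were named after their values had been seen.

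The depth of the depletion varied widely among the probes. At or below -3 in all 3 tissues were 64 of the 190, at or below -4 there were 16, and at or below -5 there were 0. Across the 190 probes the tissue means correlated, with Pearson's r of 0.864 between midgut and ovary, 0.724 between ovary and salivary gland and 0.687 between midgut and salivary gland. Spearman's rho was 0.853, 0.655 and 0.632. These probes share the pool channel and their own position on each array, and are not independent replicates, so the correlations are a description only.

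U92761.1 had the lowest mean over the 3 tissues among probes with an identifier. Its log2 ratios were -5.76 and -5.86 in the midgut replicates, -7.32 and -7.59 in ovary, and -3.69 and -3.53 in salivary gland. Its ovary mean of -7.46 ± 0.19 (SD, n = 2) was the lowest of all 190 and of all 13459 probes, and the 3 tissues did not overlap. Contig5749 followed with -5.11 and -5.39 in midgut, -6.80 and -6.83 in ovary, and -4.38 and -4.18 in salivary gland. Contig5943 gave -4.85 and -5.12, -6.76 and -6.85, and -3.998 and -4.19 in the same order. In both of these the order was again ovary, midgut, salivary gland from low to high, without overlap.

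Contig4363 differed in that midgut and salivary gland overlapped. It read -4.58 and -4.80 in midgut, -5.93 and -6.35 in ovary, and -4.87 and -4.53 in salivary gland, and its highest tissue mean, -4.69, was the lowest among probes with an identifier. Contig5711 read -4.86 and -4.81 in midgut, -6.03 and -6.51 in ovary, and -4.52 and -4.32 in salivary gland. For Contig3169 the salivary gland values of -4.41 and -3.74 overlapped the midgut values of -4.37 and -4.47, while ovary lay at -6.07 and -6.17. The remaining probes among the 10 lowest were Contig3125, Contig3461, Contig230A and Contig6450, with ovary means of -6.76 to -6.52. Among the probes without an identifier, 1 had a midgut mean of -5.94, an ovary mean of -6.81 and a salivary gland mean of -4.85, the lowest midgut and salivary gland means of the 190.

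**Figure D2:**
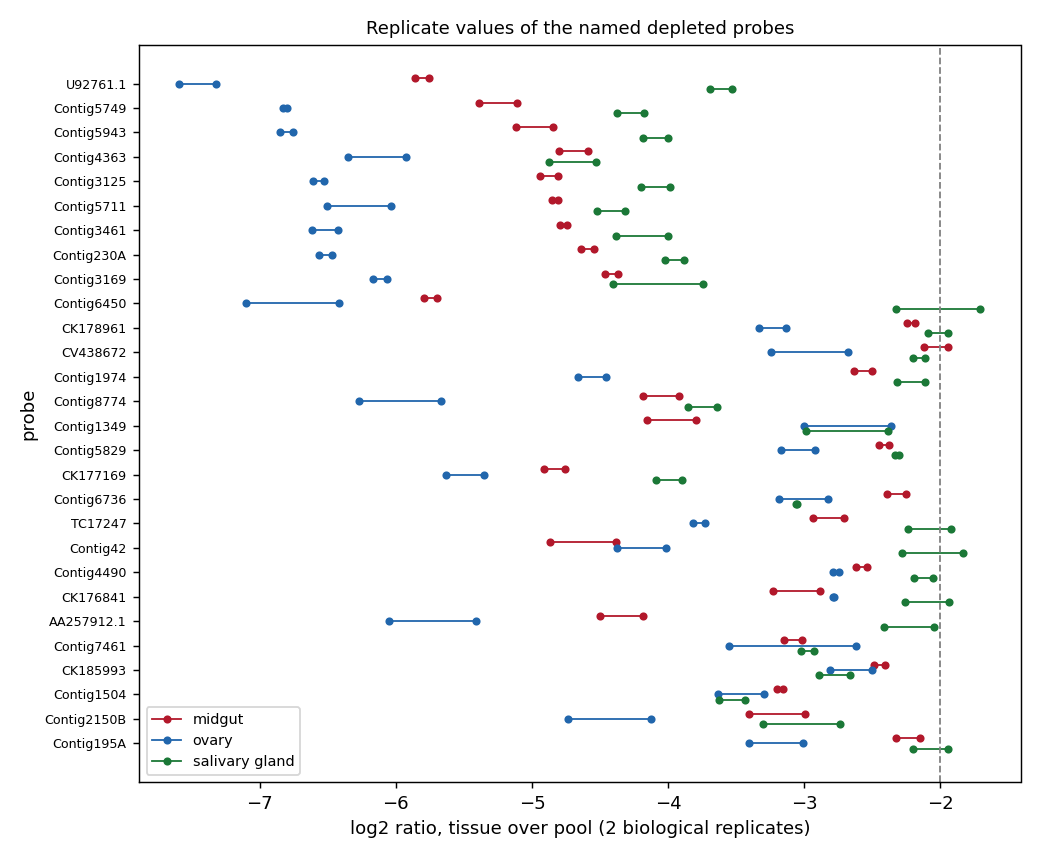
Log2 ratios of the 2 biological replicates of each tissue, joined by a line, for the 28 depleted probes chosen by the naming rule, with the dashed line at the limit of -2. U92761.1 at the top runs from -7.59 in ovary to -3.53 in salivary gland, and the tissues of Contig7461 overlap.

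In the deposited values salivary gland most often set which probes entered. One limit was applied to ratios of unlike spread, with an SD over all probes of 0.71 in salivary gland, 1.08 in midgut and 1.22 in ovary. With quantile normalization the median of the 190 was lowest in salivary gland (-3.75, against -3.42 in ovary and -3.17 in midgut), so these counts depend on the scaling. Of all probes, 881 (6.55%) had an ovary mean at or below -2, 617 (4.58%) a midgut mean and 260 (1.93%) a salivary gland mean, and the 190 made up 21.6%, 30.8% and 73.1% of these. Of 194 probes low in midgut and salivary gland, 190 (97.9%) were low in ovary as well. Of 253 low in ovary and salivary gland, 75.1% were low in midgut, and of 389 low in midgut and ovary, 48.8% were low in salivary gland. Low in midgut and ovary only were 199 probes, in ovary and salivary gland only 63, and in midgut and salivary gland only 4. Low in a single tissue were 429 in ovary, 224 in midgut and 3 in salivary gland. Thus depletion in salivary gland rarely occurred alone, a count that the rule's own limit fixes.

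Many probes lay near the limit. Within 0.25 inside it were 47, and within 0.25 outside it 60, with salivary gland setting the highest mean in 34 and 43 of them. The nearest inside were Contig6450 with a salivary gland mean of -2.01 ± 0.44, CK178961 with -2.01 ± 0.11 and CV438672 with a midgut mean of -2.03 ± 0.12 (SD, n = 2 each). Just outside were Contig4775 with a salivary gland mean of -1.99 ± 0.06, Contig5261 with a midgut mean of -1.99 ± 0.18 and a salivary gland mean of -1.99 ± 0.21, and Contig1242 with a salivary gland mean of -1.97 ± 0.14 (SD, n = 2 each). The spread between replicates of these probes exceeds their distance from the limit. Contig6450 was also among the 10 lowest, with -5.69 and -5.79 in midgut and -6.42 and -7.10 in ovary but -2.32 and -1.70 in salivary gland.

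**Figure D3:**
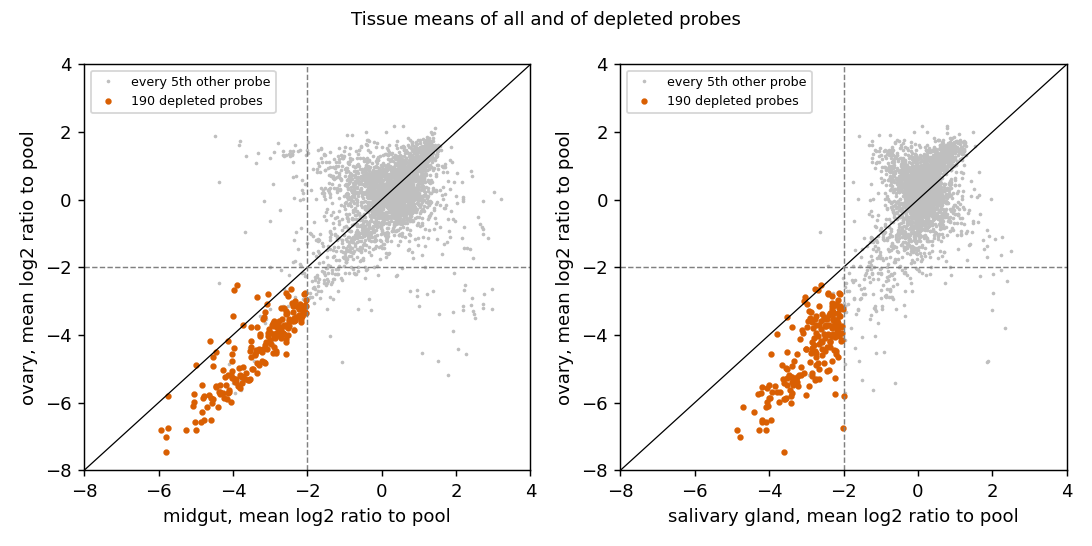
Mean log2 ratio to the pool in ovary against midgut (left) and against salivary gland (right), with the 190 depleted probes in orange, every 5th of the other probes in grey, the limit of -2 as dashed lines and equal values as a solid line. Most orange points lie under the line of equality, with 179 of the 190 (94.2%) lowest in ovary, against 37.7% of all probes.

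The low ratios recurred in samples that a choice had not used. The same limit applied to replicate 1 of every tissue chose 189 probes (1.40% of all). In replicate 2, 162 of them (85.7%) stood at or below -2 in all 3 tissues and 183 at or below -1. Their replicate 2 medians were -3.41 (midgut), -4.60 (ovary) and -2.68 (salivary gland). Chosen in replicate 2 were 215 probes (1.60%), of which 162 (75.3%) were also chosen in replicate 1, with medians there of -3.13, -3.88 and -2.61. Replicate 2 fell short mainly in salivary gland: of the 189 probes, 166 stood at or below -2 there, against 185 in midgut and 189 in ovary. Pool, dyes and slides were the same for both replicates, so this describes how far the replicates match and does not test what they share.

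The first tissue comparison set midgut against ovary. The rule did not choose probes by this difference, but both means come from the values the rule used. It cut both at -2 from unlike spreads over all probes (SD 1.08 in midgut and 1.22 in ovary). The shares of all probes given here are thus a description. The depleted probes stood a median 2.21-fold higher in midgut (log2 difference 1.14, quartiles 0.84 and 1.45), while the median over all probes was 0.04. In limma with Benjamini-Hochberg adjustment over all probes, 152 of the 190 (80.0%) passed an adjusted p of 0.05, against 40.6% of all probes. Of these, 150 were higher in midgut, a direction called for 22.3% of all probes, and 2 were higher in ovary, called for 18.3%. Replicates did not overlap for 171 probes with midgut higher and 6 with ovary higher. The matching share of all probes was not counted, so these numbers are a description only. Ovary and its slide cannot be told apart in this comparison. With quantile normalization 28 passed, 20 of them higher in midgut and 8 in ovary, and the median difference was 0.33. With repeat arrays only, 95 passed. The matching shares of all probes under these other settings were not counted, so whether such counts exceed them cannot be said. Without ovary replicate 2 the median difference was 0.92.

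Contig1974 had the highest difference. Its midgut mean was -2.57 ± 0.10 and its ovary mean -4.56 ± 0.15 (SD, n = 2 each), a log2 difference of 1.99 (SE 0.19, limma adjusted p = 0.000366). Contig230A gave 1.92 (SE 0.18, limma adjusted p = 0.000318) and Contig8774 1.92 (SE 0.25, limma adjusted p = 0.00137). In the other direction, Contig1349 read -3.80 and -4.16 in midgut and -2.36 and -3.003 in ovary, a difference of -1.29 (SE 0.31, limma adjusted p = 0.0143). That call was lost with repeat arrays only, with scale normalization, and without midgut replicate 2 or ovary replicate 1. The other probe called higher in ovary had no identifier, with a difference of -1.39 (SE 0.21, limma adjusted p = 0.00215). The smallest called differences with an identifier in favour of midgut were those of Contig5829 (0.63) and CK177169 (0.66), both lost when any 1 midgut or ovary replicate was left out. The call of CK177169 was also lost in limma with a replicate block (adjusted p = 0.0513) and with the replicate as a random block (adjusted p = 0.0898).

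Midgut and salivary gland arrays lay on the same slide. In the deposited values their median difference was the smallest of the 3 comparisons, but it was the largest with quantile and with scale normalization, where midgut was higher. The median difference over the depleted probes was -0.46 (quartiles -0.84 and -0.09), that is 1.38-fold higher in salivary gland, against 0.13 over all probes. These means too are values that the rule used, with a narrower spread over all probes in salivary gland (SD 0.71) than in midgut (SD 1.08). Shares of all probes are therefore given as a description only. Of the 190, 55 (28.9%) passed in limma against 20.0% of all probes. Salivary gland was higher in 54 of them, a direction called for 10.6% of all probes, and midgut in 1, called for 9.33%. That 1 probe, Contig6736, read -2.248 and -2.39 in midgut and -3.05 and -3.06 in salivary gland (difference 0.73, SE 0.20, limma adjusted p = 0.0448). Its call was lost in each fit that left out 1 replicate, with either the first or the repeat arrays alone, with a replicate block and with median centring.

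Contig6450 had the lowest midgut minus salivary gland difference among probes with an identifier, -3.73 (SE 0.30, 13.3-fold, limma adjusted p = 0.000419). Contig42 read -4.38 and -4.87 in midgut and -2.28 and -1.83 in salivary gland, a difference of -2.57 (SE 0.27, limma adjusted p = 0.00107). U92761.1 gave -2.20 (SE 0.19, limma adjusted p = 0.000538), and 0.12 with scale normalization. The smallest differences called for probes higher in salivary gland with an identifier were -0.65 in Contig230A and -0.74 in TC17247, both of which changed sign with quantile and with scale normalization. Both calls were also lost in each fit that left out 1 replicate, and in limma with a replicate block (adjusted p = 0.0662 and 0.0636). The number of calls was unstable, from 19 without midgut replicate 2 to 40 without either ovary replicate, with 21 when salivary gland replicate 2 was left out, 30 when replicate 1 of that tissue was and 31 when midgut replicate 1 was.

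Ovary and salivary gland had the largest median difference in the deposited values, and the smallest, with its sign reversed, with quantile and with scale normalization. As deposited, ovary was lower by a median of -1.60 on the log2 scale (quartiles -2.04 and -1.08), 3.04-fold, while the median over all probes was 0.13. Of the 190, 168 (88.4%) passed in limma, against 42.9% of all probes. All 168 were higher in salivary gland, a direction called for 21.3% of all probes, and 0 were called higher in ovary, called for 21.6%. The means compared are values that the rule used. Over all probes the ratios spread less in salivary gland (SD 0.71) than in ovary (SD 1.22). The low tail chosen by the rule was thus cut from unlike spreads, and the shares are a description, not a test of an excess. With quantile normalization 49 passed, 43 of them higher in ovary, and with scale normalization 32 passed, 22 of them higher in ovary. The matching shares of all probes under these scalings were not counted. Replicates did not overlap for 179 probes with salivary gland higher and for 0 with ovary higher, a description for which the share of all probes was not counted. Contig6450 had the lowest ovary minus salivary gland difference, -4.75 (SE 0.30, limma adjusted p = 0.000549), followed among probes with an identifier by U92761.1 with -3.85 (SE 0.19, limma adjusted p = 0.000354) and AA257912.1 with -3.50 (SE 0.28, limma adjusted p = 0.000675). AA257912.1 read -5.41 and -6.05 in ovary and -2.41 and -2.05 in salivary gland. The smallest called differences with an identifier were those of Contig4490 (-0.64), CK176841 (-0.69) and Contig5829 (-0.73), and all 3 changed sign with quantile and with scale normalization. Here too the ovary cannot be told apart from its slide.

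These tissue differences moved with the scaling of the arrays. The spread of the ratios over all probes differed by tissue, with an SD of 0.71 in salivary gland, 1.08 in midgut and 1.22 in ovary. As a percentile of all probes the depleted probes stood lowest in salivary gland, with a median of 0.754, against 1.14 in ovary and 1.47 in midgut. With quantile normalization between arrays the median difference over the 190 was 0.33 for midgut minus ovary, 0.57 for midgut minus salivary gland and 0.25 for ovary minus salivary gland. With scale normalization it was 1.11, 1.21 and 0.072. The median of midgut minus ovary thus kept its sign, and those of both comparisons with salivary gland reversed. Salivary gland was the highest tissue for 151 of the 190 (79.5%) as deposited, against 23.3% of all probes. With quantile normalization it was so for 23 and with scale normalization for 9. Ovary was the lowest for 179 (94.2%) as deposited, against 37.7% of all probes, and for 52 and 84 with these scalings. The order rests on values that the rule used, so the shares are a description. Centring each array on its median put salivary gland highest in 158 and ovary lowest in 180. The rule chose 254 probes after quantile normalization, 187 of the 190 and 67 others, and 212 after scale normalization, 167 of the 190 and 45 others.

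**Figure D4:**
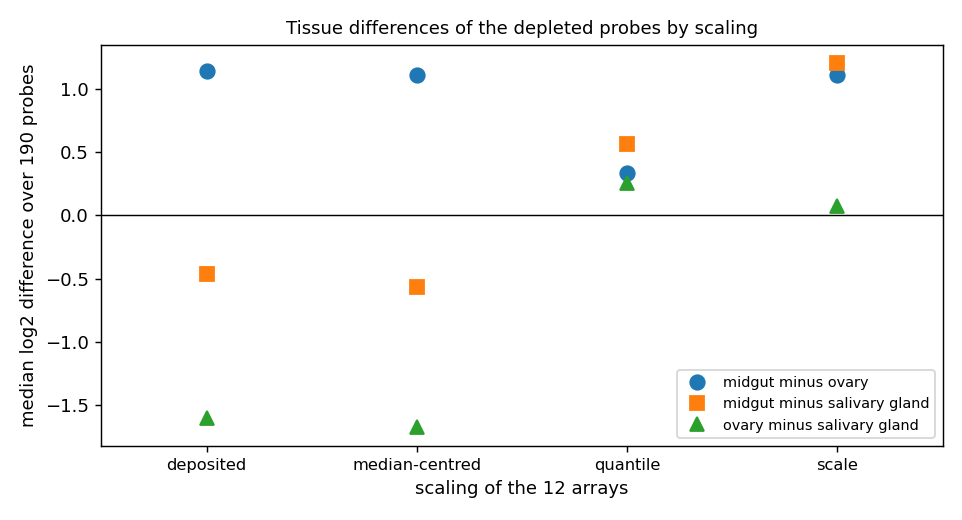
Median log2 difference between tissues over the 190 depleted probes (y axis) as deposited and after 3 scalings of the arrays (x axis). Midgut minus ovary stays above 0 in all 4, whereas midgut minus salivary gland goes from -0.46 as deposited to 1.21 with scale normalization.

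Few calls held under all 4 scalings, and the matching numbers over all probes were not counted. For midgut against ovary, 20 probes were called higher in midgut and 1 higher in ovary in every scaling. For midgut against salivary gland the only such probe was Contig6450, higher in salivary gland, with -2.93 after quantile and -2.07 after scale normalization. For ovary against salivary gland 6 held, all higher in salivary gland, 5 of them with an identifier. They were Contig6450, U92761.1, AA257912.1, GO248539.1 and Contig3162, the last 2 named after their values had been seen. U92761.1 gave -1.47 and -1.48 after quantile and scale normalization in place of -3.85. GO248539.1 gave -1.13 and -1.52 in place of -3.04 and Contig3162 -0.77 and -1.08 in place of -2.63. These probes were far less depleted in salivary gland than in ovary, with salivary gland means of -3.61 to -2.01.

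A few probes had tissue means that lay close together in the deposited values. Of the 190, 37 passed in all 3 comparisons, 123 in 2, 18 in 1 and 12 in none. The matching numbers over all probes were not counted, so whether these are many or few cannot be said. Contig7461 had the smallest range of tissue means, with a midgut mean of -3.08 ± 0.09, an ovary mean of -3.08 ± 0.66 and a salivary gland mean of -2.98 ± 0.06 (SD, n = 2 each). CK185993 had -2.45 ± 0.06, -2.65 ± 0.22 and -2.78 ± 0.16, and Contig1504 had -3.18 ± 0.03, -3.46 ± 0.24 and -3.53 ± 0.14. None of the 3 passed in any comparison, which does not show equal levels: the ovary replicates of Contig7461 lay at -2.61 and -3.55.

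Some contigs carry a pair of probes, marked A and B. Both could be placed for 58 contigs, 3 of which held a depleted probe, and in 0 of the 3 were both probes depleted. In midgut, ovary and salivary gland, in that order, Contig230A stood at -4.59 ± 0.07, -6.52 ± 0.06 and -3.95 ± 0.10, while Contig230B stood at -0.15 ± 0.30, -0.48 ± 0.23 and -0.78 ± 0.34 (SD, n = 2 each). Contig2150B stood at -3.20 ± 0.29, -4.43 ± 0.43 and -3.02 ± 0.40, and Contig2150A at -0.28 ± 0.28, -1.15 ± 1.44 and -1.32 ± 0.20. Contig195A stood at -2.23 ± 0.13, -3.21 ± 0.28 and -2.07 ± 0.18, and Contig195B at 0.00 ± 0.01, 0.53 ± 0.43 and 0.97 ± 0.76. The A and B values of a contig were hardly related over the 58, with Pearson's r of 0.0731 (midgut), 0.0357 (ovary) and 0.0684 (salivary gland), given as a description. Among the 9 of these contigs with any tissue mean at or below -2, in 0 did both probes reach it. What A and B stand for is not given in the sources used here, so a low probe cannot be read as a low contig.

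**Figure D5:**
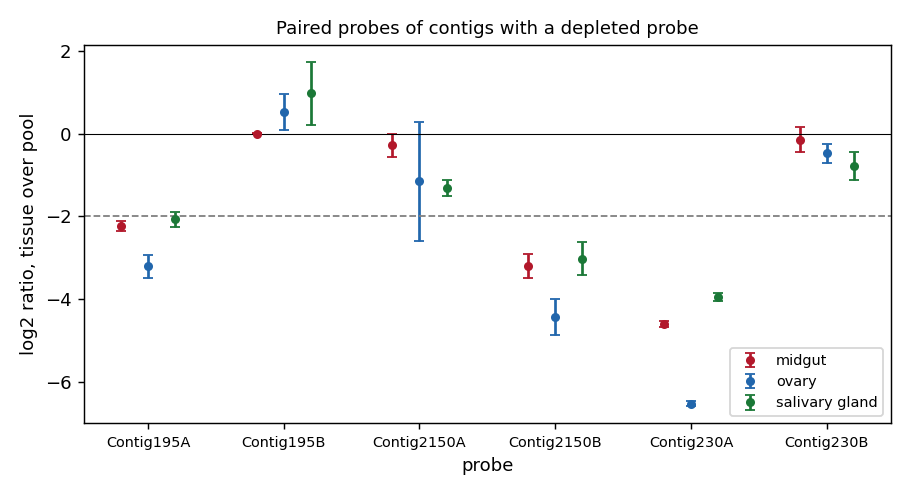
Mean log2 ratio to the pool (y axis) in each tissue, with error bars of 1 SD over 2 biological replicates, for the A and B probes of the 3 contigs that hold a depleted probe; the dashed line is the limit of -2. In each pair the means of one probe lie under the limit and those of the other between -1.32 and 0.97, and the error bars of Contig195A in salivary gland and Contig2150A in ovary cross the limit.

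Of the 157 identifiers, 119 (75.8%) start with Contig, against 71.2% of all matched identifiers, and 13 with CV (8.28% against 13.2%), 12 with CK (7.64% against 9.87%) and 8 with TC (5.10% against 3.60%). The rare GO and AA prefixes gave 2 each (1.27% against 0.14% for either), U gave 1 (0.637% against 0.206%) and EW gave 0 (against 1.60%). These shares were not tested, and those of GO, AA and U rest on 1 or 2 probes. The 4 identifiers that carry a gene tag were not among them. The authors' deposited tables hold no value for 33 of the 190 (17.4%), against 20.5% of all probes. Of the named ones, 124 of 157 (79.0%) entered those tables with all 12 arrays, against 66.7% of all named probes.

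In the authors' deposited table comparing midgut with ovary, 130 of the 157 (82.8%) passed an adjusted p of 0.05, against 65.0% of all probes with values, 128 higher in midgut and 2 in ovary. The authors' deposited table for midgut against salivary gland had 53 (33.8% against 43.2%), 2 higher in midgut and 51 in salivary gland. The authors' deposited table for ovary against salivary gland had 136 (86.6% against 64.9%), all higher in salivary gland. Those tables rest on the same arrays, so they add no independent measurement.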

How the data were processed

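Each array has 1 deposited log2 ratio for every probe, likely tissue (Cy5) over pool (Cy3) from the dyes per the labels. The submitters' processing notes name limma; version, background correction and normalization were not stated there. For 10695 of 13459 identifiers, the authors' deposited comparison tables hold, per the file headers, log2 fold changes, a fold (a plain ratio in one table and a signed score in the other tables) and an adjusted p-value. The value table numbers its lines, so each line was paired with an identifier where both fold changes with midgut equalled, within 2e-08, differences of tissue means over all or part of the arrays; 10695 were paired, 0 ambiguously. Spot intensities were not used, so probes near background cannot be marked; the number of arrays limits the precision.

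Members were probes whose tissue means over 4 arrays were all at or below -2. The members, the rule and the lists were chosen with earlier results of these data known. Arrays of a replicate were averaged (avearrays) and tissue means fitted in R 4.3.3 by limma 3.58.1 (lmFit and eBayes, 3 residual degrees of freedom), with Benjamini-Hochberg adjustment over all 13459 probes and a threshold of 0.05. With 2 samples a side, the smallest p of an exact permutation test is 0.33. Tested on simulated data, the fit gave differences without bias and few false calls, but it recovered few 2-fold changes. With its first noise model it also missed part of the log2 changes of 2, and a first pass condition, on recovery, was not met there. A further noise model was then added, and the pass condition was reset to bias and false calls. Named probes were the 10 lowest over tissues, 3 inside and 3 outside the limit, the 3 highest and 3 lowest called differences per comparison, the 3 with the smallest range and those of contigs with a probe pair. Marker lists found 0 names. Python 3.11.15 with pandas 2.3.3, numpy 2.4.6 and matplotlib 3.10.9 made the tables and figures.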

Additional observations from a re-analysis of the deposited data

Results flagged for a closer look

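Each tissue's 4 arrays were examined for a single value far from the others, in 90 groups of arrays. The groups were the medians and counts over the depleted probes, and each named probe. In all, 6 were found. For 4 independent values chance marks about 1 in 20 groups. Here each replicate gave 2 of the 4 arrays and the groups reuse the same arrays, so that rate need not hold. Contig3125 stood apart on the first arrays of replicate 1 in midgut (-4.72) and in salivary gland (-4.46). Contig5711 (-6.86) and Contig1974 (-4.92) were low on the repeat array of ovary replicate 2, an array whose median over the 190 probes was -4.73. CK177169 was low on the first array of midgut replicate 2 (-5.02), and Contig2150B was high on the repeat array of salivary gland replicate 1 (-2.09). The medians over the 190 probes and the counts at or below -2 gave no such value in any tissue.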

How the results depend on the processing

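The number of probes at or below the limit stayed between 133 and 254 with other choices of arrays and scalings and over probes with values in the authors' tables, and between 185 and 211 when 1 replicate was left out. A limit of -1.5 gave 327, -2.5 gave 109 and -3 gave 64. For midgut minus ovary, 95 of the 190 passed with repeat arrays only, 28 with quantile normalization (20 higher in midgut, 8 in ovary; median 0.33) and 94 to 156 when 1 replicate was left out. For midgut minus salivary gland, 13 passed with first and 16 with repeat arrays only, 72 with quantile normalization (65 higher in midgut), 120 with scale normalization (119 higher in midgut), 15 at an adjusted p of 0.01, 27 with a 2-fold minimum and 19 to 40 when 1 replicate was left out. Its median was -0.57 with repeat arrays only, -0.57 with centred arrays, -0.35 over probes with values in the authors' tables, 0.57 with quantile and 1.21 with scale normalization, and -0.50 to -0.40 when 1 replicate was left out. For ovary minus salivary gland, 49 passed with quantile normalization (43 higher in ovary; median 0.25), 32 with scale normalization (22 higher in ovary; median 0.072) and 133 to 169 when 1 replicate was left out. Salivary gland was highest in 23 and 9, and ovary lowest in 52 and 84, with quantile and scale normalization. Shares of all probes under the alternatives, here and above, were not counted. The counts therefore describe the depleted probes only and show no excess over other probes. The cause of these shifts was not tested; the scalings also reset the narrower spread of the salivary gland arrays.

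Of the results for single named probes under alternatives, 219 kept their side of the threshold, 69 lost the call and 12 changed sign. With quantile and scale normalization in turn, midgut minus salivary gland became 0.45 and 1.61 in Contig230A and 0.093 and 0.48 in TC17247. Ovary minus salivary gland became 0.78 and 0.52 in Contig4490, 0.75 and 0.48 in CK176841 and 0.81 and 0.55 in Contig5829. Midgut minus ovary became -0.42 in CK177169 with quantile normalization, and midgut minus salivary gland 0.12 in U92761.1 with scale normalization.

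Whether same-numbered samples came from the same ticks is not given in the labels. Deviations of same-numbered samples correlated at -0.03 between midgut and ovary, 0.03 between midgut and salivary gland and 0.10 between ovary and salivary gland. These correlations do not decide whether the samples were paired. With a replicate block 156, 52 and 168 of the 190 passed in the 3 comparisons. With 2 replicates per tissue, no spot intensities and no dye swap, probes near background in either channel cannot be marked. Fits that leave 1 replicate in a tissue assume that it varies like the others. The alternatives for tissue order and for the choice in 1 replicate were chosen after seeing the data.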
